A study of Mus musculus with 4 samples.

Results

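Perforin (Prf1) and the granzymes (Gzma, Gzmb, Gzmc, Gzmd, Gzme, Gzmf, Gzmg, Gzmk and Gzmm) were followed in bulk RNA of tumour-infiltrating CD8 T cells, as 10 genes chosen by symbol. Of these, 9 were among the 14082 genes of the deposited tables, and Gzmg was not listed. The T cells, specific for ovalbumin, were sorted by flow cytometry from subcutaneous tumours of E.G7, a mouse T lymphoma line (a derivative of EL4) that expresses ovalbumin. The hosts received the tumour cells at 6 to 10 weeks of age. Those labelled KO carried Cd8-cre together with a floxed Smad4 gene (Cd8-cre Smad4-fl/fl), and those labelled WT carried the floxed gene without the recombinase (Smad4-fl/fl). Both groups therefore share the floxed alleles, and deletion can be looked for only in cells in which Cd8-cre was active. Each group had 2 libraries, and no label says whether they came from separate animals, so p-values here measure the spread between libraries, which may be technical.

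Cytotoxic T cells keep perforin and granzymes in secretory granules, which they release onto a bound target cell. Perforin forms pores in the target membrane, through which the granzymes, a family of serine proteases, reach the cytosol. Granzyme B cleaves after aspartate and activates caspases, granzyme A and granzyme K cleave after basic residues, and granzyme M cleaves after methionine or leucine. Mice carry a further group of granzymes, C to G, whose genes lie beside Gzmb and which are best known from strongly activated mouse lymphocytes. SMAD4 is the partner that receptor-activated SMAD proteins share in TGF-beta and BMP signalling, and TGF-beta is known to repress cytotoxic genes in T cells.

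Summed counts were 25806382 and 26218277 in the KO libraries and 24366540 and 25790107 in the WT libraries. Smad4 itself had 779 and 1088 counts in KO libraries, against 752 and 736 counts in WT libraries, and so was not lower in the libraries labelled KO (log2 fold change 0.19, 95% confidence interval -0.12 to 0.49, edgeR adjusted p = 0.397). Its log2 fold change was 0.40 without KO replicate 1 (edgeR adjusted p = 0.00788) and -0.056 without KO replicate 2, and a count per gene also takes in exons that the recombinase leaves. Every direction below is therefore between libraries labelled KO and WT. The defining genes of the sorted cells, Cd8a and Cd8b1, were present in all libraries, at a summed 396 and 405 CPM in KO libraries, against 778 and 759 CPM in WT libraries (CPM, counts scaled to the TMM-adjusted library total). Transcripts of other cells were present too. Over all tested genes 11.0% were lower and 10.1% higher (adjusted p under 0.05), the background for the marker counts that follow. The counts of macrophage and monocyte markers lay close to it. Of 12 macrophage and monocyte markers, summing to 17197 and 17900 CPM in KO libraries and 17648 and 18291 CPM in WT libraries, 2 were lower and 1 higher (2 to 4 lower and up to 3 higher over the alternatives). Of 13 neutrophil markers, 7 were higher (11 without KO replicate 2), and they summed to 1643 and 1644 CPM in KO libraries, against 527 and 535 CPM in WT libraries. NK cells also make perforin and granzymes, and of 12 markers of theirs 10 were listed, with 5 lower and 2 higher, summing to 927 and 920 CPM in KO libraries, against 1139 and 1154 CPM in WT libraries. Tyrobp, also a myeloid gene, supplied most of these sums, and the other 9 NK markers summed to 209 and 207 CPM in KO libraries, against 509 and 520 CPM in WT libraries. The lower ones were Klre1 (3.66-fold), Il18rap (2.84-fold), Klrk1 (2.60-fold) and Klri2 (2.22-fold), which activated CD8 T cells can also express, and Klra9, with 0 counts in both KO libraries and 10 in each WT library. Klra9 thus entered the test through its WT counts alone. With a mean of at least 5 CPM required, 4 NK markers were lower. The higher pair, Klrb1b and Tyrobp, did not pass without WT replicate 1 or without WT replicate 2, and 1 of them passed without KO replicate 1. Ncr1, an NK cell receptor, had 0 and 19 counts in KO libraries, against 4 and 15 counts in WT libraries, and Klra4 and Klra8 were not listed. With so few reads Ncr1 does not measure NK cell content, and the part of NK cells was not tested. Other marker lists moved as well. Of 10 genes listed for CD8 T cells, 7 were lower, Cd8a and Cd8b1 among them, with sums of 2215 and 2197 CPM in KO libraries, against 3190 and 3245 CPM in WT libraries. Apart from Cd8a and Cd8b1 these are genes of T cells in general, so the sums do not measure CD8 T cells alone. Of 6 listed genes of immature T cells and lymphoma, 3 were higher, Ly6d (3.89-fold), Ptcra (10.3-fold) and Dntt (1.31-fold), with sums of 158 and 147 CPM in KO libraries, against 83.7 and 86.7 CPM in WT libraries. Which cells these reads came from was not tested. Of 5 markers of CD4 and regulatory T cells, Cd4 was higher (2.21-fold, at 63.1 and 67.7 CPM in KO libraries, against 26.9 and 32.2 CPM in WT libraries). Of 9 dendritic cell markers, 3 were higher, among them Siglech (2.59-fold), and 1 was lower, Cd209a, which did not pass without WT replicate 1 or without WT replicate 2; their sums were 487 and 495 CPM in KO libraries, against 315 and 313 CPM in WT libraries. Of 5 tested B cell markers 3 were higher, of 3 tested mast cell markers 2, and of 6 erythroid and platelet markers 4. With a mean of at least 5 CPM required, the B cell count was 0 and the mast cell count 1. The B cell markers summed to at most 18.1 CPM in any library, and Cd79a among them had 4.21 and 3.93 CPM in KO libraries, against 0.886 and 0.480 CPM in WT libraries. The mast cell markers summed to 151 and 129 CPM in KO libraries, against 71.2 and 75.5 CPM in WT libraries. The erythroid and platelet markers summed to 908 and 941 CPM in KO libraries, against 753 and 757 CPM in WT libraries. Of 6 gamma delta T cell markers only Blk, also a B cell gene, was listed, at 1.73 and 0.964 CPM in KO libraries, against 0.0422 and 0.120 CPM in WT libraries; it was higher, but not without WT replicate 1. Mitochondrially encoded genes took 6.57% and 6.99% of counts in KO libraries, against 10.4% and 10.2% in WT libraries. In bulk RNA, fewer cells of a type and less RNA per cell cannot be told apart, and the part that these markers and the mitochondrial share have in the results below was not tested beyond the comparison with Cd8a and Cd8b1 and the fit without mitochondrially encoded genes.

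Granzymes B to G are close relatives, which bears on how well short reads separate them. The opening 90 coding bases of the listed genes next to Gzmb, from GENCODE M21 transcripts, are shown because the measured changes differ among these related genes. Capitals mark bases that differ from Gzmd at the same position.
Gzmd: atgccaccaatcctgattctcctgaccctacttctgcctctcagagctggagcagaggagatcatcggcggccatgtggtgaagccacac
Gzme: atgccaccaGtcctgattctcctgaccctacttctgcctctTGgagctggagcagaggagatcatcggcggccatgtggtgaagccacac
Gzmf: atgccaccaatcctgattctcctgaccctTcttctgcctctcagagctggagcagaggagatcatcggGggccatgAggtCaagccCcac
Gzmc: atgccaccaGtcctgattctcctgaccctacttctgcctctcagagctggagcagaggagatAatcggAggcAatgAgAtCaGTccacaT
Gzmb: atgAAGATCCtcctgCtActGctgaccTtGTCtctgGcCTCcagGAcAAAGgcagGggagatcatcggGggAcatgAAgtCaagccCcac
Gzme differed from Gzmd at 3 of these positions, Gzmf at 5, Gzmc at 10 and Gzmb at 31. Over the whole coding sequence Gzmd and Gzme were 93.3% identical, Gzmd and Gzmf 83.6%, Gzmd and Gzmc 71.5%, and Gzmd and Gzmb 65.3%. Stretches of 50 bases that also occur in a transcript of another gene made up 21.9% of those of Gzmd, 20.6% of Gzme, 7.36% of Gzmf and 4.14% of Gzmc. For Prf1, Gzma, Gzmb, Gzmk and Gzmm no such stretch was found. At 100 bases only 0.231% of the stretches of Gzmd were shared, and no shared stretch was found for Gzme, Gzmf or Gzmc. Neither read length nor the treatment of reads matching several genes is stated in the labels, so the values of Gzmd and Gzme are less certain as separate genes than those of Prf1 or Gzmb.

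Of the 9 listed genes, 6 were lower in KO libraries, by 3.07-fold to 11.6-fold: Prf1, Gzmb, Gzmk, Gzmd, Gzme and Gzmf. The other 3, Gzma, Gzmc and Gzmm, did not pass the test (edgeR quasi-likelihood, Benjamini-Hochberg adjusted p under 0.05 over 13358 tested genes). Over all tested genes, 11.0% were lower and 10.1% higher. The same 6 were lower by more than 2-fold, as were 2.16% of all tested genes. In 7 of the 9, Gzma included, both KO libraries lay below both WT libraries, as in 30.0% of all tested genes, while 29.7% lay above. Each of the 9 had reads above the filter's minimum in both libraries of both groups, so none was tested through its WT level alone. Their median log2 fold change was -2.05, beside -0.0037 over all tested genes. The summed CPM of the 9 was 283 and 302 in KO libraries, against 1280 and 1261 in WT libraries, most of it from Prf1 and Gzmb.

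**Figure D1:**
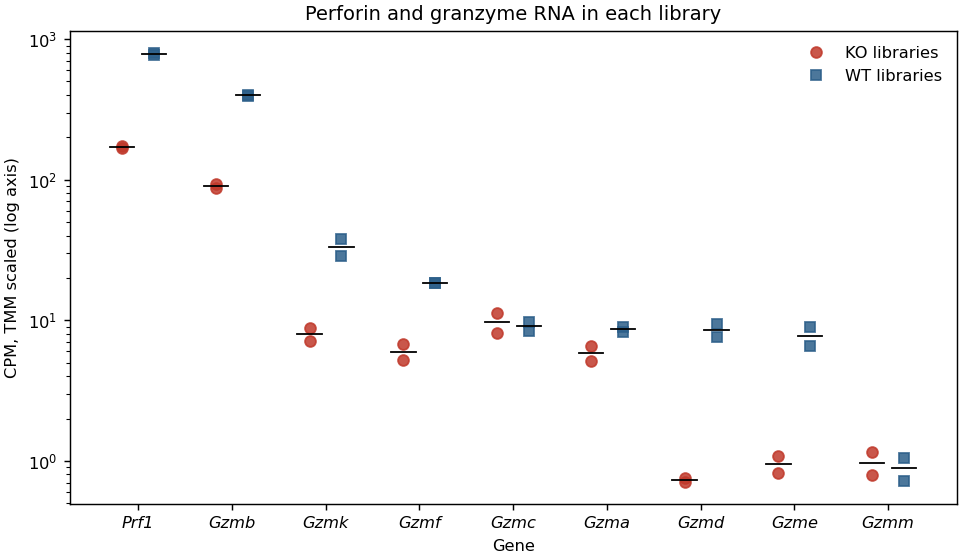
CPM (TMM scaled, log axis) of each listed gene in the 2 KO libraries (circles, left) and the 2 WT libraries (squares, right), with group means as bars. The groups are far apart for Prf1, Gzmb, Gzmk, Gzmf, Gzmd and Gzme, and overlap for Gzmc and Gzmm.

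Perforin, the pore former, was the most abundant of these RNAs per transcript length in every library. Prf1 had 167 and 173 CPM in KO libraries, against 800 and 772 CPM in WT libraries. It was 4.62-fold lower in KO (log2 fold change -2.21, SE 0.056, edgeR adjusted p = 2.04e-10), and its KO libraries lay far under both WT libraries. Granzyme B, the main caspase-activating protease of the granule, stood at 86.6 and 93.6 CPM in KO libraries, against 397 and 399 CPM in WT libraries. Gzmb was 4.42-fold lower (log2 fold change -2.14, SE 0.061, edgeR adjusted p = 2.31e-10). Both fell by nearly the same factor, and in both the spread within a group was small beside the gap. By deposited FPKM, which divides by transcript length, Prf1 ranked 839 and 804 of all listed genes in KO libraries, against 166 and 165 in WT libraries. Gzmb ranked 915 and 835 in KO libraries, against 183 and 179 in WT libraries. In GENCODE M21 (build GRCm38, also called mm10) both are protein-coding genes, Prf1 at chr10:61297833-61304680 (plus strand) and Gzmb at chr14:56258838-56262260 (minus strand).

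**Figure D2:**
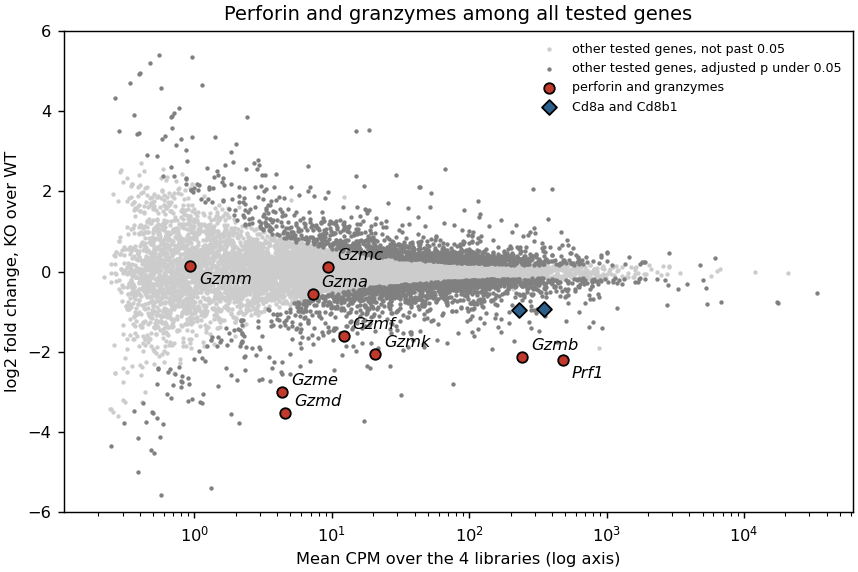
Each point is a tested gene, by mean CPM over the 4 libraries (log axis) and log2 fold change, KO over WT, with 17 genes beyond 6 in either direction not drawn. Prf1 and Gzmb, at log2 fold changes of -2.21 and -2.14, combine a high level with a large fall, below Cd8a at -0.93 and Cd8b1 at -0.96.

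The deepest falls of the family were those of Gzmd and Gzme, mouse granzymes at the far end of the Gzmb cluster. Gzmd had 20 and 19 counts in KO libraries, against 222 and 189 counts in WT libraries. That is 0.752 and 0.704 CPM in KO libraries and 9.37 and 7.56 CPM in WT libraries, 11.6-fold lower (log2 fold change -3.53, SE 0.31, edgeR adjusted p = 6.00e-06). Gzme had 29 and 22 counts in KO libraries, against 211 and 163 counts in WT libraries. It was 8.06-fold lower (log2 fold change -3.01, SE 0.33, edgeR adjusted p = 3.28e-05). Low KO counts make these folds less precise than those of Prf1 and Gzmb, with 95% confidence intervals of -4.21 to -2.85 for Gzmd and -3.72 to -2.30 for Gzme on the log2 scale. Gzmf, another mouse granzyme of the cluster, had 138 and 183 counts in KO libraries, against 436 and 458 counts in WT libraries. It was 3.07-fold lower (log2 fold change -1.62, SE 0.18, edgeR adjusted p = 4.75e-05), the smallest of the 6 falls. Gzmf shares 151 exonic bases with Gm4022 on the opposite strand, which was not listed, and its value is uncertain to that extent.

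Of the basic-residue granzymes, Gzmk fell and Gzma did not pass. Gzmk had 189 and 239 counts in KO libraries, against 679 and 941 counts in WT libraries, and was 4.15-fold lower (log2 fold change -2.05, SE 0.17, edgeR adjusted p = 2.86e-06). Its 2 WT libraries differed, at 28.7 and 37.7 CPM, but both were more than 3 times the KO values of 7.11 and 8.86 CPM. Gzmk spans Esm1 on the opposite strand, with which it shares no exonic base, and Esm1 moved the other way (log2 fold change 0.54). Gzma, the tryptase of the granule, had 175 and 138 counts in KO libraries, against 196 and 224 counts in WT libraries. Its CPM of 6.58 and 5.11 in KO libraries lay under the 8.27 and 8.96 CPM of WT libraries without overlap. The log2 fold change of Gzma was -0.56 (SE 0.22, 95% confidence interval -1.04 to -0.084, edgeR adjusted p = 0.0932). Without KO replicate 1 it passed, at -0.75 (edgeR adjusted p = 0.0219), and over all 13 alternatives its adjusted p ranged from 0.0219 to 0.361. Gzma and Gzmk are neighbours on chromosome 13, at 113093825-113100981 and 113171608-113225908, both transcribed from the minus strand.

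Gzmc and Gzmm had like values in both groups. Gzmc, the granzyme next to Gzmb, had 8.12 and 11.3 CPM in KO libraries, against 8.40 and 9.68 CPM in WT libraries. The groups overlapped, with the 2 WT values inside the range of the KO values. Its log2 fold change was 0.11 (SE 0.21, 95% confidence interval -0.35 to 0.56, edgeR adjusted p = 0.781), which turned to -0.15 without KO replicate 2. Falls as deep as that of Gzmb lie outside this interval. Gzmm, a granzyme best known from NK and innate-like lymphocytes, had 21 and 31 counts in KO libraries, against 25 and 18 counts in WT libraries. So few reads allow a wide interval of -1.18 to 1.44 on the log2 scale (log2 fold change 0.13, edgeR adjusted p = 0.914), and a change of up to about that size could not be detected at this depth. Gzmm lies on chromosome 10 from 79689020 to 79695261.

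Since Cd8a and Cd8b1 were also lower in KO libraries, 1.90-fold and 1.94-fold, the same genes were set against the summed reads of that pair. The same 6 genes were lower relative to CD8, by 1.60-fold to 6.03-fold, where 1.20% of all tested genes were lower and 81.6% were higher. Per 1000 reads of Cd8a plus Cd8b1 there were 422 and 428 reads of Prf1 in KO libraries, against 1029 and 1018 in WT libraries. For Gzmb these were 218 and 231 reads in KO libraries, against 511 and 526 in WT libraries. Prf1 was thus 2.41-fold lower relative to CD8 (log2 fold change -1.27, SE 0.061, edgeR adjusted p = 5.27e-10) and Gzmb 2.30-fold lower (log2 fold change -1.20, SE 0.066, edgeR adjusted p = 1.31e-09). In neither gene did the groups come near each other. Gzmd had 1.90 and 1.74 reads per 1000 in KO libraries, against 12.0 and 9.97 in WT libraries, and was 6.03-fold lower. Gzme was 4.20-fold, Gzmk 2.17-fold and Gzmf 1.60-fold lower, with edgeR adjusted p from 3.65e-06 for Gzmd to 0.00395 for Gzmf over these 4. Gzmf had 13.1 and 16.7 reads per 1000 in KO libraries, against 23.7 and 24.2 in WT libraries.

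Gzmc stood on the other side of this comparison, with 20.5 and 28.0 reads per 1000 CD8 reads in KO libraries, against 10.8 and 12.8 in WT libraries. Relative to CD8 it was 2.06-fold higher (log2 fold change 1.04, SE 0.21, edgeR adjusted p = 0.000308), close to the median of all tested genes on that scale, 0.93. Gzma had 16.6 and 12.6 reads per 1000 in KO libraries, against 10.6 and 11.8 in WT libraries, and did not pass (log2 fold change 0.38, 95% confidence interval -0.11 to 0.87, edgeR adjusted p = 0.134). Without KO replicate 2 it passed, at 0.56 (edgeR adjusted p = 0.0267), and set against summed reads of the CD3 chains (Cd3d, Cd3e, Cd3g and Cd247) it was -0.058 (edgeR adjusted p = 0.830). Gzma adjusted p ranged between these over the 12 alternatives. Gzmm did not pass (log2 fold change 1.06, 95% confidence interval -0.25 to 2.38, edgeR adjusted p = 0.121). The fit takes the CD8 reads of a library as given, and a test of each ratio by exact permutation of 2 against 2 libraries cannot go below a two-sided p of 0.333, the value all 9 ratios had.

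**Figure D3:**
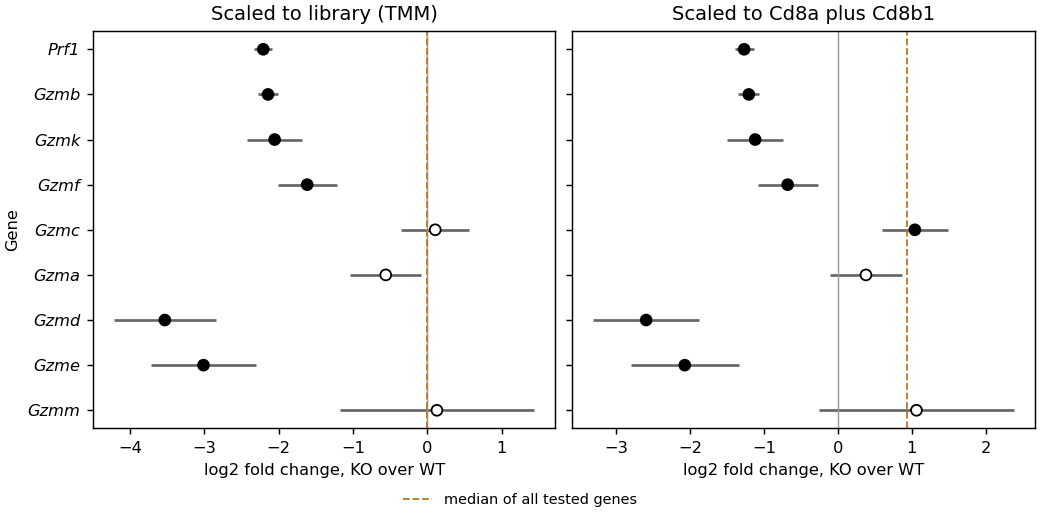
Log2 fold changes, KO over WT, with 95% confidence intervals, scaled to the library (left) and to summed Cd8a and Cd8b1 reads (right), where filled points passed an adjusted p of 0.05. Prf1, Gzmb, Gzmk, Gzmf, Gzmd and Gzme stay left of 0 in both panels, whereas Gzmc lies near the median of all tested genes (dashed) in both.

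The make-up of granzyme RNA differed between the groups. By deposited FPKM within each library, Gzmb made up 67.6% and 65.8% of summed granzyme FPKM in KO libraries, against 77.9% and 77.2% in WT libraries. The share of Gzmc was 10.2% and 12.8% in KO libraries, against 2.65% and 3.01% in WT libraries. Gzma took 7.34% and 5.13% in KO libraries, against 2.32% and 2.47% in WT libraries. In the order of FPKM among the 9 genes, Prf1 came before Gzmb in all 4 libraries, while the next place belonged to Gzmc in both KO libraries and to Gzmk in both WT libraries. Gzmd and Gzme shrank as shares too, Gzmd to 0.875% and 0.737% in KO libraries, against 2.74% and 2.18% in WT libraries. Gzme had 1.33% and 0.898% in KO libraries, against 2.74% and 1.98% in WT libraries. The shares of Gzmk overlapped between the groups, at 5.74% and 6.43% in KO libraries and 5.81% and 7.53% in WT libraries.

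**Figure D4:**
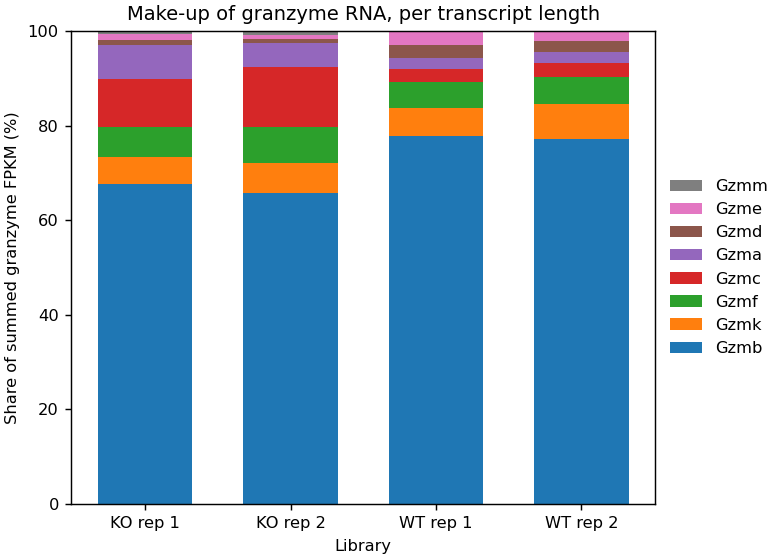
Share of each granzyme in the summed granzyme FPKM (%) of the 2 KO libraries (left) and the 2 WT libraries (right). Gzmb holds 65.8% to 67.6% in KO and 77.2% to 77.9% in WT libraries, and the bands of Gzmc and Gzma are wider in KO libraries.

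Whether members moved differently from Gzmb was tested directly, with Gzmb reads as the scale, a comparison added after the values were seen. On that scale 0.180% of all tested genes were lower and 95.7% higher. Prf1 did not differ detectably from Gzmb, with 1931 and 1852 reads per 1000 Gzmb reads in KO libraries, against 2015 and 1936 in WT libraries (log2 difference -0.063, 95% confidence interval -0.24 to 0.11, edgeR adjusted p = 0.471). Gzmk did not either (0.086, interval -0.29 to 0.46, edgeR adjusted p = 0.647). Gzmc, Gzma and Gzmm were higher relative to Gzmb, by 2.24, 1.59 and 2.25 on the log2 scale (edgeR adjusted p = 3.05e-13, 1.23e-07 and 0.00181). Most tested genes were higher on this scale too. Scaled to the library, Gzmb stood at -2.14 and the median of all tested genes at -0.0037. A gene level between the groups is therefore higher relative to Gzmb, and these 3 are not set apart from other genes by it. Gzmc had 93.8 and 121 reads per 1000 Gzmb reads in KO libraries, against 21.2 and 24.3 in WT libraries. Gzmd was lower relative to Gzmb by a log2 difference of -1.39 (edgeR adjusted p = 0.000918), a call lost without WT replicate 1 (-1.23, edgeR adjusted p = 0.0524). Gzme at -0.87 and Gzmf at 0.52 also passed (edgeR adjusted p = 0.0301 and 0.0199), but neither passed with DESeq2, Gzme did not pass with limma-voom, and neither passed without KO replicate 2, WT replicate 1 or WT replicate 2, where adjusted p reached 0.323 for Gzme and 0.120 for Gzmf. With all libraries 6 genes differed from Gzmb, and without WT replicate 1 only 3 did: Gzmc, Gzma and Gzmm.

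Along the Gzmb cluster the granzyme nearest to Gzmb was level between the groups, while Gzmb and the tested granzymes farther away were lower. Whether the changes depend on position was not tested. The granzyme genes of the cluster all lie on the minus strand of chromosome 14, with Gzmb first and Gzme 142 kb downstream of its start. Gzmc, from 56231441 to 56234656, starts 27.6 kb from Gzmb and was level between the groups. Gzmf, from 56205263 to 56211417, starts 50.8 kb away and was lower, and Gzmd, from 56129556 to 56132608, starts 130 kb away and fell the deepest. Gzme lies from 56117626 to 56120625. Between Gzmf and Gzmd lie Gzmg and Gzmn, neither of which was listed. Of the 11 other protein-coding genes within 200 kb of the cluster's members, Gzmn included, Rnf17 alone had enough reads for a test. It did not pass (log2 fold change -0.76, edgeR adjusted p = 0.497). Beside Prf1, 1 of 5 tested neighbours was lower, Adamts14, a metalloprotease gene (log2 fold change -1.79, edgeR adjusted p = 1.59e-05). Near Gzma and Gzmk, 2 of 5 tested neighbours were higher, Esm1 and Ccno, and near Gzmm 2 of 15, Prss57 and Palm. Over all tested genes 11.0% were lower and 10.1% higher, and a change shared by a region was not tested.

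**Figure D5:**
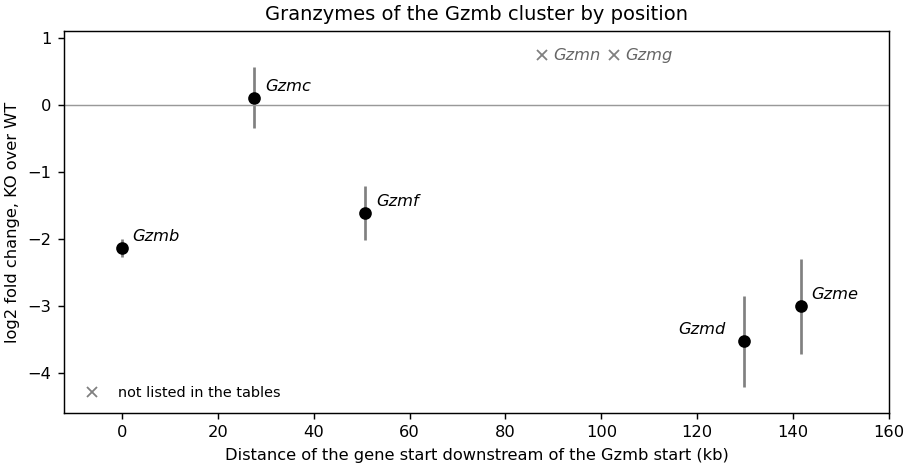
Log2 fold change, KO over WT, with 95% confidence interval, of the granzymes of the Gzmb cluster by distance of their start from that of Gzmb (kb), where crosses mark the unlisted Gzmn and Gzmg. Gzmc, 27.6 kb from Gzmb, sits near 0 between Gzmb at -2.14 and Gzmf at -1.62.

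Gzmd, Gzme and Gzmc resemble each other in sequence, but Gzmd and Gzme fell whereas Gzmc was level between the groups. The 250 bases before their start sites are shown, with those of Prf1 and Gzmb, which fell together. They are from RefSeq promoters of GRCm38.p6, 5′ to 3′ on the strand of the gene, with capitals for matches on either strand to the letters TGTGGT (a RUNX core), AGGTGT (a T-box core) and CAGAC (a SMAD core).
Prf1, chr10:61297586-61297835: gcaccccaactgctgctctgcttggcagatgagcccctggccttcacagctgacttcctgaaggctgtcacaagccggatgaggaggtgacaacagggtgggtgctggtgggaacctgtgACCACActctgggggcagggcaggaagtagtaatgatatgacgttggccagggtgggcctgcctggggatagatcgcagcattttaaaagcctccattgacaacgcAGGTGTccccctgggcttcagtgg
Gzmb, chr14:56262335-56262584: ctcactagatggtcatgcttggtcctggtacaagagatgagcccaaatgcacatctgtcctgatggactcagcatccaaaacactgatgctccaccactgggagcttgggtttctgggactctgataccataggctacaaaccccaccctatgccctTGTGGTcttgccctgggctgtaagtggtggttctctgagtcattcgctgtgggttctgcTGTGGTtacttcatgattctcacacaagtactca
Gzmd, chr14:56132594-56132843: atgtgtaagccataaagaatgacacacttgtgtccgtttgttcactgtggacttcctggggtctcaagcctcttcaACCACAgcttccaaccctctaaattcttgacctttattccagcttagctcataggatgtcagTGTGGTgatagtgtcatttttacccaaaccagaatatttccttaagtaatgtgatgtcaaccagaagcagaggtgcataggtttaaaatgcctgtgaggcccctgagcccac
Gzme, chr14:56120626-56120875: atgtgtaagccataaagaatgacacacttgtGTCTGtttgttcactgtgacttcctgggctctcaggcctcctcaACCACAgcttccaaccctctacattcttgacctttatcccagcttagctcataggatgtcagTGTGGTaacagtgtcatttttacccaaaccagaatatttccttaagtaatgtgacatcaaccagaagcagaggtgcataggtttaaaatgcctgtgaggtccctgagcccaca
Gzmc, chr14:56234658-56234907: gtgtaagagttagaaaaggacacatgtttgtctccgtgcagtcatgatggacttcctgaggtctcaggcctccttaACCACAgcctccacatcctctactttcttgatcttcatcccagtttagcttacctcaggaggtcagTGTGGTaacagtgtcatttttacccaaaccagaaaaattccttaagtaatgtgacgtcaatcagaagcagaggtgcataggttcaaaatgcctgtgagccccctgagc
Prf1 is on the plus strand and the others are on the minus strand. The promoters of Gzmd and Gzme were 94.8% identical, those of Gzmd and Gzmc 80.5%. Gzmd and Gzmc both hold the RUNX letters on the reverse strand from -174 to -169 relative to the start site, and on the forward strand from -112 to -107 in Gzmd and from -108 to -103 in Gzmc. Gzmb holds them from -93 to -88 and from -34 to -29. All 10 genes, Gzmg included, had a promoter in the table, and the RUNX letters occurred in 9 of them (all but Gzmk), beside 14.0% of all 32851 promoters of that length. The T-box letters occurred in 3 of the 10 (Prf1, Gzma and Gzmk; 11.8% of all promoters), and the SMAD letters in 4 (Gzmk, Gzme, Gzmg and Gzmf; 42.2% of all). TGANTCA, an AP-1 site, was found in Gzmb alone (6.7% of all) and TTCNNNGAA, a STAT site, in Gzmm alone (7.0% of all). Each gene was counted by its first promoter, whereas the 32851 can hold several of a gene. Gzmm had another promoter, at chr10:79693576-79693825, without a match to any of these letters. None of these letter strings contains another. The promoters of Gzmc to Gzmg share much of their sequence, so their matches are not separate observations, and a match is no evidence of binding.

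Among genes with a mean of at least 5 CPM, the profile nearest to that of Prf1 over the 4 libraries was that of Gzmb, and the nearest to Gzmb was Prf1 (Euclidean distance of centred log2 CPM, 0.0884). The next nearest to Prf1 were Upk1a (0.157), Klrh1 (0.204), Slc17a6 (0.240) and Unc13b (0.266). For Gzmb they were Upk1a (0.171), Unc13b (0.185), Serpine2 (0.232) and Bach2 (0.241). With 2 groups of 2 libraries, such a distance reads mainly the size of the group difference.

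Other genes of the granule pathway fell less evenly. Granule loading and granzyme processing moved little, with 2 of 10 genes lower and 1 higher, close to the 11.0% and 10.1% over all tested genes, and a median log2 fold change of -0.054. The same shares and the median over all tested genes, -0.0037, are the background for the lists that follow. Cst7, which encodes cystatin F, an inhibitor of granzyme-activating cathepsins, was 2.10-fold lower at 100 ± 8.32 CPM in KO and 211 ± 9.64 CPM in WT libraries (SD, n = 2 each; edgeR adjusted p = 4.08e-07). Ctsc, the cathepsin that trims granzymes to their active form, was 1.20-fold lower (edgeR adjusted p = 0.00445). Ctsl, another cathepsin, was 1.17-fold higher, and did not pass without WT replicate 2, whereas 3 genes of the list were higher with library totals as the scaling. Srgn, the proteoglycan that holds granzymes in the granule, did not pass (log2 fold change -0.079, edgeR adjusted p = 0.323). Of 11 listed exocytosis genes, 9 were lower, with a median of -0.69. Nkg7, a granule membrane protein gene, was 2.68-fold lower, at 500 ± 29.3 CPM in KO and 1339 ± 74.8 CPM in WT libraries (SD, n = 2 each; edgeR adjusted p = 9.13e-09). Ap3b1, a subunit of the adaptor that sorts granule cargo, was 1.61-fold lower, and the synaptotagmin-like genes Sytl3 and Sytl2 were 2.26-fold and 2.15-fold lower. Relative to CD8 the exocytosis list had 1 lower (Nkg7) and 6 higher genes of 11, beside 1.20% lower and 81.6% higher over all tested genes, and a median of 0.25 beside 0.93, with 2 lower without KO replicate 1 and 5 lower when CD3 chains took the place of CD8.

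All 4 serpins on the list of granzyme inhibitors and their close relatives were lower. Serpinb9b, a mouse serpin that inhibits granzyme M, was 6.98-fold lower, at 19.1 ± 2.55 CPM in KO and 133 ± 1.84 CPM in WT libraries (SD, n = 2 each; edgeR adjusted p = 1.19e-09). Serpinb9, the inhibitor of granzyme B, was 1.96-fold lower, and Serpinb6b and Serpinb6a were 2.34-fold and 1.44-fold lower. Relative to CD8, Serpinb9b and Serpinb6b were lower (log2 fold changes -1.86 and -0.29), Serpinb9 did not pass and Serpinb6a was higher. On that scale 1.20% of all tested genes were lower and 81.6% higher, with a median of 0.93. Of 15 regulators of cytotoxic genes, 8 were lower and 7 did not pass, with a median of -0.24. Eomes, a T-box factor that activates Prf1 and Gzmb, was 5.34-fold lower, at 5.94 ± 1.49 CPM in KO and 31.8 ± 2.19 CPM in WT libraries (SD, n = 2 each; edgeR adjusted p = 8.33e-07). Id2, Stat4 and Prdm1 were 1.62-fold, 1.69-fold and 1.55-fold lower, whereas Runx3 did not pass (log2 fold change -0.24, edgeR adjusted p = 0.0687). Relative to CD8, Eomes was the 1 regulator that was lower (log2 fold change -1.48), against 4 with CD3 chains in place of CD8. Of the 15 regulators, 11 were higher relative to CD8, with a median of 0.70 beside the 0.93 of all tested genes. Among 8 SMAD pathway genes 3 were lower, Smad7, Tgfbr2 and Skil, with log2 fold changes of -0.86, -0.47 and -0.28. Beside all of these, Cd8a and Cd8b1 were lower and neutrophil markers higher in the same libraries, and their part in these list results was not tested.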

How the data were processed

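RNA-seq of sorted OVA-specific CD8 T cells was deposited as 1 table per library, with a count and an FPKM value per gene. The raw counts per gene are the authors' own, and the submitters' processing notes name Trim Galore 0.4.4, Bowtie2, featureCounts, edgeR, DESeq2 and build mm10, without roles, annotation or strand setting. FPKM values are as deposited by the authors, and for 98.3% (lowest library) or 98.4% of genes holding 50 counts or more the implied length lay within 0.1% of the GENCODE M21 exon length. All 14082 listed genes had at least 20 counts over the 4 libraries, so genes with fewer reads are not analysed here.

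Counts were tested with edgeR 4.0.16 (R 4.3.3; TMM scaling, robust quasi-likelihood fit, both groups, no covariate) after a filter on low counts (minimum 10) that left 13358 genes, and p-values were adjusted over all of them. The biological coefficient of variation was 9.31%. A second fit took the summed Cd8a and Cd8b1 counts as library size, and another fit those of Gzmb. Alternatives used limma 3.58.1 (voom), DESeq2 1.42.0, other scalings and filters, and each library left out. The scripts were tested on simulated data. The genes named are the members, Smad4, Cd8a and Cd8b1, up to 4 of each list with the lowest p, genes within 200 kb of a member, and the 5 nearest profiles of Prf1 and of Gzmb. Srgn, Runx3, Klrb1b, Tyrobp and Ncr1 were added after their values were seen. The members and gene lists were chosen with earlier results of these data known. No libraries were merged, since their counts within a group varied beyond sampling noise (chi-square per degree of freedom 9.72 in KO and 7.39 in WT). Intervals are 95% confidence intervals of the fit. The list of granzyme substrates and mediators of target death is not reported here.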

Additional observations from a re-analysis of the deposited data

How the results depend on the processing

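Of 9 genes, 6 were lower in KO under the alternatives that tested all 9, except that 7 were without KO replicate 1 (6 to 7 with a library left out); with a mean of at least 5 CPM required, 4 of the 6 genes then tested were lower. Relative to CD8 the count was 6, and again 4 of 6 under that filter. Over all tested genes 160 were lower relative to CD8, against 95 under that filter and 355 with CD3 chains in place of CD8. Relative to Gzmb, 95.7% of all tested genes were higher and 0.180% lower, so most genes differ from Gzmb, which is the background for the next counts. The count differing from Gzmb was 3 under that filter, for which 6 genes were tested, and ranged from 3 (without WT replicate 1) to 6 (without KO replicate 1) with a library left out; DESeq2 gave 4 and limma-voom 5. The median log2 ratio to CD8 over the genes, -1.12, was -1.55 with CD3 chains as denominator and ranged from -1.25 to -0.89 with a library left out, the last without WT replicate 2. The CD3 chains are not particular to CD8 T cells, and their log2 fold changes were -0.14 (Cd3d), -0.59 (Cd3g), -0.72 (Cd3e) and -0.90 (Cd247), beside -0.93 for Cd8a. What other T cells or tumour cells add to this denominator was not tested. Directions turned only for values that did not pass. With a library left out, Gzmc ranged from -0.15 to 0.33, Gzmm from -0.16 to 0.43 (-0.12 without WT replicate 2), Smad4 from -0.056 to 0.40, and Gzmk relative to Gzmb from -0.095 to 0.29 (-0.021 without KO replicate 2). Gzma relative to CD3 chains was -0.058. The causes were not tested. Over all genes, 1472 were lower, against 824 without WT replicate 1 and 876 without WT replicate 2. Same-numbered libraries did not deviate together over the genes as a whole (correlation -0.031 over 13358 genes). A correlation pooled over genes cannot exclude a shared batch that acts on few genes or differently in each group. With the replicate block 6 genes were lower, 1522 over all genes. With 2 libraries a group, and few reads for Gzmd, Gzme and Gzmm, small changes were not detectable.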
